A study of Mus musculus with 6 samples.

Results

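The genes described here encode the immunoproteasome and the machinery that loads peptides onto major histocompatibility complex (MHC) class I molecules. They are Psmb8, Psmb9 and Psmb10, Psme1 and Psme2, Tap1, Tap2 and Tapbp, B2m, and the class I transactivator Nlrc5. They were chosen by symbol, with earlier results of the same comparison known, so their values are given as a description and without a test. The array carries 13 probes on 32 spots for these 10 genes, out of 55681 probes on 59305 spots under 35527 gene names. Probes averaging at least 50 on the arrays of either label were tested, and these were all 13 probes here and 30990 probes of 22094 gene names in all.

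Cells of the 3T3 line, established fibroblasts from mouse embryos, were transfected with GapmeR Ntep or with GapmeR control at 50 nM and harvested 48 h later. The dose is that of the labels, and the array documentation writes it as 2 × 50 nM. A GapmeR is an antisense oligonucleotide that recruits RNase H to its target RNA, here the long non-coding RNA Ntep, and the comparison asks which transcripts differ once Ntep is targeted. Both groups received an oligonucleotide. Each of 3 independent experiments gave 1 Agilent array in 1 color per GapmeR, and all 6 arrays were on 1 slide. Signals below are quantile-normalized intensities with no unit, and values under 20 were set to 20. They can be compared between arrays for a probe but not between probes.

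Ntep is read by 1 probe, named A630089N07Rik in the files. Its signal was 472, 91.5 and 226 on the Ntep-labelled arrays in experiments 1, 2 and 3, and 271, 272 and 361 on the control-labelled arrays. The probe was lower in experiments 2 and 3 and higher in experiment 1, which goes against its label (limma log2 difference over the 3 experiments -0.48, SE 0.58, adjusted p = 0.632). Arrays are therefore named by the GapmeR on their label (Ntep-labelled or control-labelled), and directions below are those of the labels. Values without experiment 1 are given for the 10 genes. They are also given for the proteasome, peptide loading, heavy chain and regulator genes described as rising or falling. They are not given for the cell markers or for the genes most like the 10 in profile. Between 43.7% and 53.3% of probes were well above background per array, and none was saturated. The 8 fibroblast markers (collagens, Fn1, Sparc, Vim and the PDGF receptors) were well above background on all arrays, with a summed signal of 497398 to 662640 on the Ntep-labelled arrays and 759566 to 839198 on the controls. Of the markers of other cells, 3 of 7 for macrophages and dendritic cells, 2 of 8 for lymphocytes (Cd3e and Cd4) and 4 of 7 for epithelium and endothelium (Krt8, Krt18, Pecam1 and Kdr) were also well above background on all arrays, while Ptprc, Cd8a, Ms4a1, Cd79a and Cdh5 were on none. The 7 macrophage and dendritic cell markers on the array summed to 33037 to 62732 against 15549 to 21207, most of it from Itgam, and Cd68 was higher by 1.21 (log2, limma adjusted p = 0.0287). Csf1r differed by 3.19 (log2, adjusted p = 0.151) with overlap, and Itgam, Krt18, Pecam1 and Kdr were higher without overlap but missed the adjusted limit. Of the other macrophage and dendritic cell markers, Lyz2 differed by -0.18 (limma adjusted p = 0.746) and Itgax by 0.87 (adjusted p = 0.484). Both overlapped between labels, and Ptprc and Flt3 were too dim to be tested. The 8 lymphocyte markers summed to 815 to 1072 against 697 to 872, and the 7 epithelial and endothelial markers to 3435 to 6136 against 2382 to 4299. The part of these differences in the results below was not tested. In a culture measured in bulk, fewer cells of a type and less RNA per cell cannot be told apart.

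Proteasomes degrade proteins into peptides. In the immunoproteasome, the catalytic subunits encoded by Psmb8, Psmb9 and Psmb10 replace the constitutive subunits encoded by Psmb5, Psmb6 and Psmb7, which alters the peptides that are made. Peptides are pumped into the endoplasmic reticulum (ER) by the TAP transporter, are loaded onto a class I heavy chain paired with beta-2-microglobulin, and are shown on the cell surface to cytotoxic T cells. Interferons raise these genes, in part through the transcription factor IRF1, and NLRC5 assembles with RFX, CREB and NF-Y factors on class I promoters.

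5 of the genes lie on chromosome 17 in GRCm38.p6, within or beside the MHC. Psmb9 (34182030 to 34187330), Tap1 (34187556 to 34197225), Psmb8 (34198195 to 34201454) and Tap2 (34204479 to 34216321) follow each other without another member between them, and Tapbp lies at 33919478 to 33929290. Psme1 (55578494 to 55581527) and Psme2 (55587440 to 55591101) are neighbours on chromosome 14. Nlrc5 (94434335 to 94527272) and Psmb10 (105935728 to 105938392) are on chromosome 8, and B2m (122147687 to 122153082) is on chromosome 2.

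Psmb9 and Tap1 start 225 bases apart and are read in opposite directions, so the stretch between them is upstream of both genes. It is shown because the pair shares it. RefSeq promoter windows, of 250 bases before and 50 after a start, were found for 8 of the 10 genes, and the bases before the start of B2m and Psmb8 are shown because they hold letters of an interferon-type element. All are on the plus strand of GRCm38.p6. Capitals mark letters matched on either strand by a search for GAAANNGAA (as in an interferon-stimulated response element) and TTCNNNGAA (as in a gamma interferon activation site). They also mark the CCAAT box, searched by those 5 letters, the GC box, spelled GGGCGG, and the cAMP response element, spelled TGACGTCA.
Psmb9 to Tap1, chr17:34187331-34187555: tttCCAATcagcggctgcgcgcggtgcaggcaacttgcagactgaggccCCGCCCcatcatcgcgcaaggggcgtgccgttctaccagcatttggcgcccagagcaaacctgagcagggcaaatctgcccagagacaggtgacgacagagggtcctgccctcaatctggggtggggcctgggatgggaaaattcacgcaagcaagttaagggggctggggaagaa
B2m, chr2:122147437-122147686: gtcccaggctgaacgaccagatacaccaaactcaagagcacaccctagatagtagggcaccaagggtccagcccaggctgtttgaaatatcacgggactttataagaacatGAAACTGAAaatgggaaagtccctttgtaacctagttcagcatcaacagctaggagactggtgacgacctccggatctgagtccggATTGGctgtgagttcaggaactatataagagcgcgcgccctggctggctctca
Psmb8, chr17:34197945-34198194: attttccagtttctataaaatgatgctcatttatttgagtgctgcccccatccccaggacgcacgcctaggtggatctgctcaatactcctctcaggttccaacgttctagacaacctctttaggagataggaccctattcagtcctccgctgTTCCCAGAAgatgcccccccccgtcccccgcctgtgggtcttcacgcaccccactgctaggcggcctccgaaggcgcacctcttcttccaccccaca

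The letters GAAANNGAA stood at -139 of B2m and, on the other strand, 11 bases into Psme1. Among all 32851 windows of the table, 8.56% held them. Psmb8 held TTCNNNGAA at -97, which 8.3% of windows did. The CCAAT box stood in the windows of B2m, Psmb9, Tap1 and Tapbp and the GC box in those of Psmb9, Psme1, Psme2, Tap1 and Tapbp, against 37.4% and 35.7% of all windows. In the stretch between Psmb9 and Tap1 the CCAAT box lay at -8 to -4 of Psmb9, which is -222 to -218 of Tap1. The cAMP response element was in none of the 8 genes' windows and in 1.79% of all. A match describes the letters only.

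All 10 genes had a lower signal on every Ntep-labelled array than on any control-labelled array. Among all tested genes, each read by its brightest probe, 15.4% were lower without overlap. The log2 differences ran from -0.67 to -5.89 with a median of -2.33, where the median of all tested genes was 0.06. Past a fold of 2 with an unadjusted limma p under 0.01 were 8 of the 10, all lower, beside 4.99% of all genes in that direction and 2.88% in the other, and past a Benjamini-Hochberg adjusted p under 0.05 were 6, beside 3.17%. With experiments as blocks 10 passed the latter limit, beside 7.4%. Since the members were chosen on this comparison, nothing is read from these counts.

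**Figure D1:**
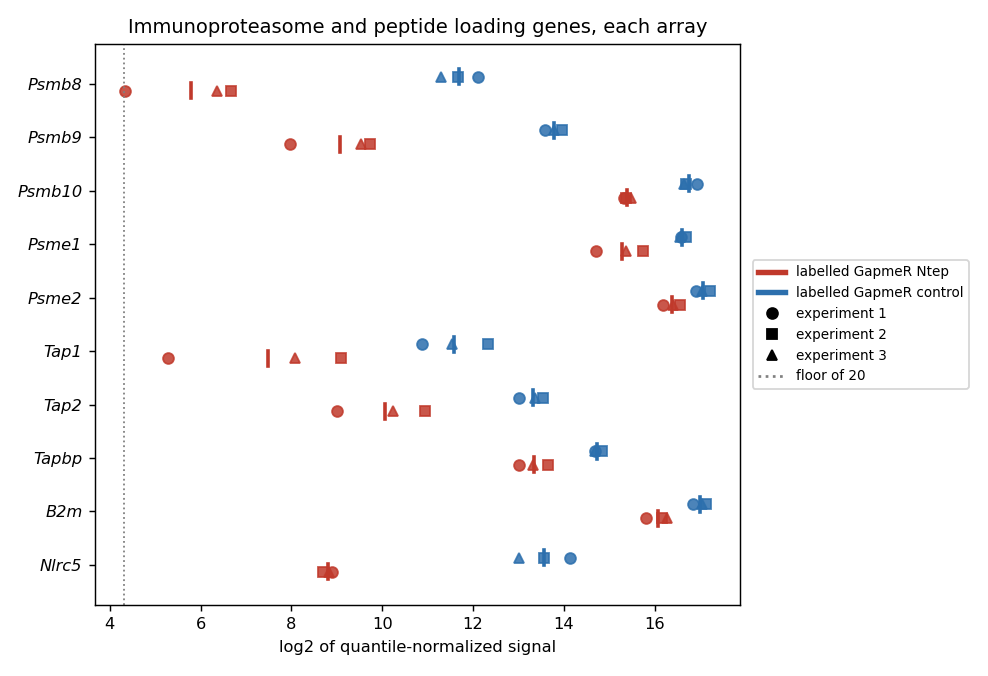
Log2 of the quantile-normalized signal (x axis) of the brightest probe of each of the 10 genes on each of 6 arrays. Symbols are experiments, colors are the labels, short bars are means of 3 arrays and the dotted line is the floor of 20. In each gene the Ntep-labelled arrays all lie to the left of the controls.

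Psmb8 encodes the immunoproteasome subunit with chymotrypsin-like activity, also called LMP7. Its signal was 20.3, 102 and 82.4 on the Ntep-labelled arrays of experiments 1, 2 and 3, against 4420, 3254 and 2498 on the controls. The groups were far apart, with experiment 1 close to the floor, and 1 of the 3 Ntep-labelled arrays was well above background. On the log2 scale it differed by -5.89 (SE 0.64, n = 3 per group). It was -5.02 without experiment 1 and -4.18 after normexp background correction.

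Psmb9, or LMP2, lies head to head with Tap1 across the stretch printed above. Its signal was 252, 845 and 738 on the Ntep-labelled arrays and 12274, 16002 and 13996 on the controls, which were well above background throughout. The controls spanned 1.3-fold and the Ntep-labelled arrays 3.36-fold, with experiment 1 lowest. Psmb9 differed by -4.70 on the log2 scale (SE 0.48), and by -4.20 without experiment 1.

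Psmb10, or MECL-1, encodes the remaining inducible catalytic subunit. Its signal was 40989, 42356 and 45777 on the Ntep-labelled arrays and 124419, 106509 and 102523 on the controls. Arrays of each label lay close together, and the log2 difference of -1.37 (SE 0.17) was smaller in size than those of Psmb8 and Psmb9. It was -1.15 with 75th percentile scaling and -1.24 without experiment 1.

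The constitutive subunits that these replace did not pass the test. Psmb5 (chymotrypsin-like) differed by 0.17 (log2, SE 0.18, limma adjusted p = 0.578). Psmb7 (trypsin-like) differed by 0.20 (SE 0.16, adjusted p = 0.484). Psmb6 (caspase-like) differed by -0.03 (SE 0.17, adjusted p = 0.914), and by 0.20 with 75th percentile scaling. A second, dimmer probe of Psmb5 gave 0.43 (adjusted p = 0.213). Set against its constitutive counterpart within each experiment, the log2 difference of Psmb8 minus that of Psmb5 was -7.85, -5.19 and -5.16 (mean -6.07, SD 1.55, n = 3). Psmb9 minus Psmb6 gave -5.61, -4.04 and -4.35 (mean -4.66, SD 0.83). Psmb10 minus Psmb7 gave -1.83, -1.60 and -1.26 (mean -1.56, SD 0.28). The signals of inducible and constitutive subunits thus changed unequally in each experiment, and since Psmb8, Psmb9 and Psmb10 were chosen on this comparison the contrast has no test.

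Psme1 and Psme2 encode the alpha and beta subunits of PA28, the ring that caps the proteasome and opens its gate. Psme1, on 10 spots, gave 26818, 55014 and 42065 on the Ntep-labelled arrays and 97475, 105820 and 96380 on the controls. The controls agreed within 1.1-fold while experiment 1 stood lowest among the Ntep-labelled arrays, and repeat spots of an array varied by a CV of 2.26% to 5.49%. On the log2 scale Psme1 differed by -1.33 (SE 0.29), and by -1.06 without experiment 1.

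The brightest Psme2 probe gave 74935, 96933 and 87300 against 123853, 153200 and 134892, a log2 difference of -0.67 (SE 0.18), the smallest in size among the 10 genes. The groups did not overlap, although the highest Ntep-labelled array reached 96933 beside a lowest control of 123853. A second Psme2 probe gave 41840, 59299 and 47168 against 94473, 109398 and 94585 (log2 difference -1.02, SE 0.20). The third, whose coordinates in mm9 (48759630 to 48759689 of chromosome 11) are not on the chromosome of Psme2, was not well above background on the Ntep-labelled arrays and was at least 1.79-fold lower there. With the mean of its 3 probes Psme2 differed by -1.07, and with 75th percentile scaling its brightest probe differed by -0.45. Without experiment 1 that probe differed by -0.65.

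Of the other proteasome genes, none of 11 further subunits of the 20S core and none of 18 subunits of the 19S cap passed the adjusted limit in either direction, where 3.17% of all genes were lower and 1.98% higher. Within the core, the log2 difference ranged from -0.66 in Psma2 (adjusted p = 0.142) to 0.27 in Psmb3 (adjusted p = 0.388). Within the cap it ranged, by brightest probes, from -0.23 in Psmc6 (adjusted p = 0.430) to 0.56 in Psmd11 (adjusted p = 0.223). Dimmer probes of Psmc1 and Psmd12 gave 0.73 and 0.64 (limma adjusted p = 0.112 and 0.102). Both were higher without overlap, with an unadjusted p under 0.05. Dimmer probes of Psmc2, Psmc3 and Adrm1 overlapped between labels. Over these and the constitutive catalytic subunits, 11 of 32 genes lay below zero and 21 above, with a median of 0.15. None of the 32 passed an unadjusted fold of 2 with p under 0.01, and none passed the adjusted limit by the methods' t-test or with experiments as blocks. At an unadjusted limma p under 0.05 and by brightest probes, 1 was lower (Psma2) and 2 were higher (Psmd7 and Psmd13), beside 12.6% and 12.3% of all genes.

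Among 10 genes of assembly, other activators and the NRF1 pathway, Psmf1 rose. It encodes PI31, a protein described as a proteasome inhibitor. Its signal was 2863, 4143 and 4419 on the Ntep-labelled arrays and 1049, 1376 and 1348 on the controls, higher without overlap. The log2 difference was 1.58 (SE 0.24, limma adjusted p = 0.0299), and 1.63 without experiment 1 (adjusted p = 0.0455). Psmg4, an assembly chaperone, had the lowest difference at -0.54 (adjusted p = 0.105). Ddi2, a protease that activates NRF1, differed by 1.07 (adjusted p = 0.0892), and passed with experiments as blocks (adjusted p = 0.0397). It is named because its call changed with the pairing.

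**Figure D2:**
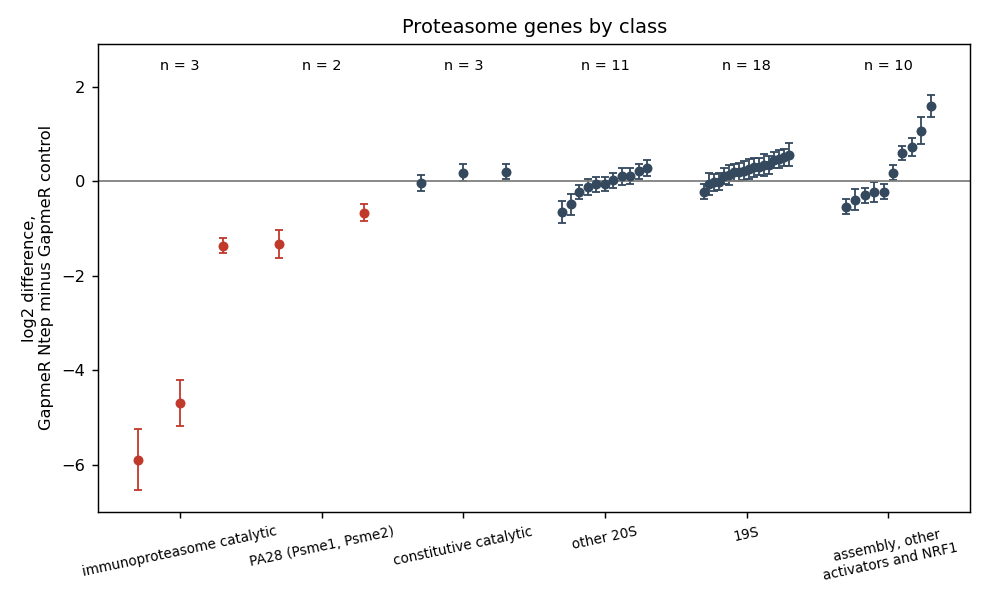
Log2 difference, Ntep-labelled arrays minus GapmeR control (y axis), of the brightest probe of each proteasome gene by class, with bars of 1 SE from the limma fit (n = 3 arrays per label). The 5 inducible genes (red), chosen on this comparison, lie at -0.67 or lower, and the 20S and 19S genes lie between -0.66 and 0.56. Psmb6, at -0.03, lies above zero with 75th percentile scaling.

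TAP, a heterodimer of TAP1 and TAP2, moves cytosolic peptides into the ER. Tap1, on 10 spots, gave 39, 544 and 270 on the Ntep-labelled arrays and 1867, 5147 and 2961 on the controls. The groups did not overlap, but both varied, by 13.9-fold and 2.76-fold from the lowest to the highest array. On the Ntep-labelled array of experiment 1, 1 of the 10 spots was well above background and the repeat spots had a CV of 27.3%, against 3.08% to 8.41% on the other arrays. Tap1 differed by -4.09 on the log2 scale (SE 0.99), the widest error of the 10 genes, and -3.34 without experiment 1.

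Tap2 gave 517, 1960 and 1209 on the Ntep-labelled arrays and 8308, 11968 and 10564 on the controls. All 6 arrays were well above background, and experiment 1 was the lowest of each label. Tap2 differed by -3.25 on the log2 scale (SE 0.49), and by -2.83 without experiment 1.

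Tapbp encodes tapasin, which holds the class I molecule at the transporter. It gave 8288, 12861 and 10289 against 26321, 29447 and 26435. The controls lay within 1.12-fold of each other, and the log2 difference was -1.41 (SE 0.21), and -1.26 without experiment 1. In this group of transport genes, both TAP subunits differed more than tapasin in each experiment.

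B2m encodes beta-2-microglobulin, the light chain of every classical class I molecule, and its promoter is printed above. Its signal was 57069, 72824 and 79071 on the Ntep-labelled arrays and 118300, 142555 and 134050 on the controls. No array overlapped, and the log2 difference of -0.93 (SE 0.20) is 1.9-fold by the means of log2 signals. It was -0.86 without experiment 1. With 75th percentile scaling it was -0.70, where the median of all genes moved from 0.06 to 0.22.

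Nlrc5 encodes a NOD-like receptor family protein that acts as a transactivator of class I genes. Its brightest probe gave 478, 411 and 451 on the Ntep-labelled arrays and 18047, 12167 and 8197 on the controls. The Ntep-labelled arrays lay within 1.16-fold of each other, and the controls spanned 2.2-fold. The log2 difference was -4.77 (SE 0.31), or 27.3-fold by the means of log2 signals, and -4.51 without experiment 1. A dimmer probe gave 47.5, 134 and 124 against 705, 518 and 389, with a smaller log2 difference of -2.50 (SE 0.46) and 2 of 3 Ntep-labelled arrays well above background. The mean of both probes gave -3.63.

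**Figure D3:**
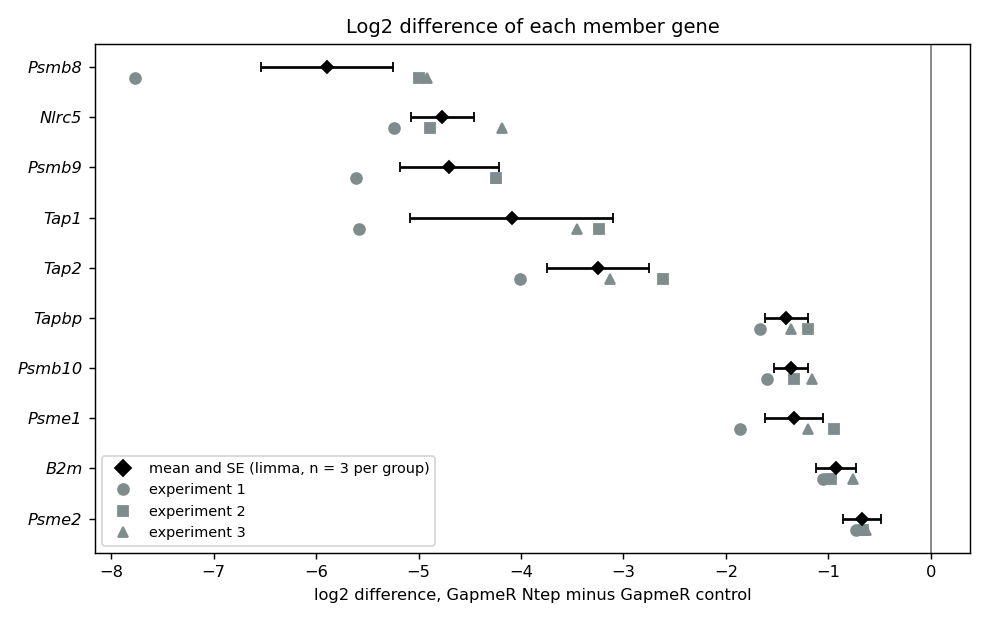
Log2 difference, Ntep-labelled arrays minus GapmeR control (x axis), of the 10 genes, ordered by size. Diamonds are limma means with bars of 1 SE (n = 3 arrays per label), and gray symbols are the differences within each experiment. All 30 within-experiment differences lie below zero, from -7.77 to -0.63.

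Within experiments, the median log2 difference of the 10 genes was -2.93, -1.97 and -2.24 in experiments 1, 2 and 3, and all 10 lay below zero in each. Across the 6 arrays, each gene's log2 profile correlated with the mean profile of the other 9 at a Pearson r of 0.937 (Nlrc5) to 0.998 (Psmb9). By their brightest probes the genes fall into 2 ranges of size, with Psmb8, Nlrc5, Psmb9, Tap1 and Tap2 at -3.25 or lower and Tapbp, Psmb10, Psme1, B2m and Psme2 at -1.41 or higher. No brightest probe lay between, but the second Nlrc5 probe (-2.50) and the third Psme2 probe (-1.51) did. By position, the 4 genes from Psmb9 to Tap2 on chromosome 17 were all in the former range, together with Nlrc5 on chromosome 8. The brightest probes of the former range had control means of 3325 to 14091, and those of the latter 27401 to 137315. The part of probe brightness in the 2 ranges was not tested.

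The non-member genes most like the mean profile of the 10, by Pearson correlation over the 6 arrays, were Scfd2, Tmem229b, BC094917, Gbp2 and Gm4902, each with r of at least 0.998. With 3 arrays per label such a correlation mostly reads the difference between labels. Gbp2, an interferon-inducible GTPase, gave 4218, 10925 and 8235 on the Ntep-labelled arrays and 62845, 83308 and 53272 on the controls. Scfd2 gave 1349, 2511 and 2109 against 7428, 8246 and 7495. By the means of log2 signals, these 2 genes were 9.02-fold and 4.01-fold lower. Tmem229b differed by -1.97, BC094917 by -1.77 and Gm4902 by -3.96. In all 5 the Ntep-labelled array of experiment 1 was the lowest, as in 9 of the 10 members.

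Partners of peptide loading in the ER were read by 6 genes, of which 1 passed as lower and none as higher, beside 3.17% and 1.98% of all genes. Erap1, the aminopeptidase that trims peptides to length, fell. Its signal was 344, 367 and 354 on the Ntep-labelled arrays and 1708, 1033 and 1074 on the controls, without overlap. Erap1 differed by -1.80 on the log2 scale (SE 0.24, limma adjusted p = 0.0260), and -1.57 without experiment 1 (adjusted p = 0.0455).

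The general chaperones did not pass. Canx, calnexin, differed by -0.50 (adjusted p = 0.165) and Calr, calreticulin, by -0.40 (adjusted p = 0.209), and neither overlapped between labels. Pdia3, the disulfide isomerase of the loading complex, differed by -0.28 (adjusted p = 0.484). Tapbpl, the tapasin-related editor TAPBPR, differed by -0.28 (adjusted p = 0.404). Uggt1, a glucosyltransferase that senses folding, differed by 0.49 (adjusted p = 0.253), and its dimmer probe by 0.95 (adjusted p = 0.0690).

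The class I heavy chains, which B2m accompanies, were read by 5 genes, all lower without overlap, as were 15.4% of all genes, and 1 of them passed the adjusted limit, beside 3.17%. H2-K1, a classical heavy chain, fell, with 108206, 143362 and 125530 on the Ntep-labelled arrays and 236163, 239247 and 218946 on the controls. The log2 difference was -0.89 (SE 0.18, limma adjusted p = 0.0469), and -0.77 without experiment 1 (adjusted p = 0.0787). That probe also missed the limit whichever array was left out (limma adjusted p of 0.0521 to 0.186). A dimmer H2-K1 probe differed by -1.10 and missed the limit (adjusted p = 0.0653). H2-T23, a non-classical chain, gave 16330, 28050 and 21405 against 38130, 47026 and 43887. It missed the limit without a block (adjusted p = 0.0701) and passed with experiments as blocks (adjusted p = 0.0397). H2-D1 differed by -0.78 (adjusted p = 0.139), H2-Q7 by -0.81 (adjusted p = 0.128) and H2-M3 by -0.53 (adjusted p = 0.125). Heavy chain genes are close copies, so probes may read more than their named gene.

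Among the regulators above these genes, 14 of 15 were tested and 3 fell, beside 3.17% of all genes, of which Ifnb1 and Ifngr1 are described. Ifng, which encodes interferon gamma, was at the floor on all 6 arrays. Ifnb1, which encodes interferon beta, gave 479, 1058 and 862 on the Ntep-labelled arrays and 6055, 4440 and 2857 on the controls. Ifnb1 differed by -2.49 on the log2 scale (SE 0.40, limma adjusted p = 0.0335), and -1.88 without experiment 1 (adjusted p = 0.0595).

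Ifngr1, the ligand-binding chain of the interferon gamma receptor, gave 9480, 13706 and 9573 against 33489, 25037 and 23866. Its log2 difference was -1.34 (SE 0.24, adjusted p = 0.0376), and -1.08 without experiment 1 (adjusted p = 0.0816).

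Irf1, a transcription factor that interferons induce, gave 46682, 55445 and 45230 on the Ntep-labelled arrays and 109354, 88813 and 69452 on the controls by its brightest probe. The labels did not overlap, and the log2 difference of -0.84 (SE 0.22) missed the adjusted limit (adjusted p = 0.0835). A dimmer Irf1 probe was at the floor on all Ntep-labelled arrays, was well above background on 2 of 3 controls and was at least 1.7-fold lower. The partner chain Ifngr2 differed by 0.04 (adjusted p = 0.908). Of the RFX factors that work with NLRC5, Rfxank differed by -1.24 (adjusted p = 0.0874) and passed with experiments as blocks (adjusted p = 0.0359). Rfx5 gave 20, 71.2 and 40.7 on the Ntep-labelled arrays, where 1 of 3 was well above background, and 140, 212 and 143 on the controls, so that its brightest probe was tested only because of its level on the controls. Another Rfx5 probe gave 20, 216 and 34.1 against 122, 125 and 99.5. It was higher in experiment 2 and overlapped between labels (log2 difference -1.12, limma adjusted p = 0.461). The third RFX gene, Rfxap, differed by -0.07 (adjusted p = 0.909). Of the NF-Y genes by their brightest probes, Nfya was higher without overlap but missed the limit (0.69, adjusted p = 0.0695). Nfyc differed by 0.12 (adjusted p = 0.793) and Nfyb by -0.33 (adjusted p = 0.484). Creb1 had the highest difference of the list at 0.74 (adjusted p = 0.321). Irf1, Ifngr2, the RFX genes and the NF-Y genes were singled out after their values were seen.

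**Figure D4:**
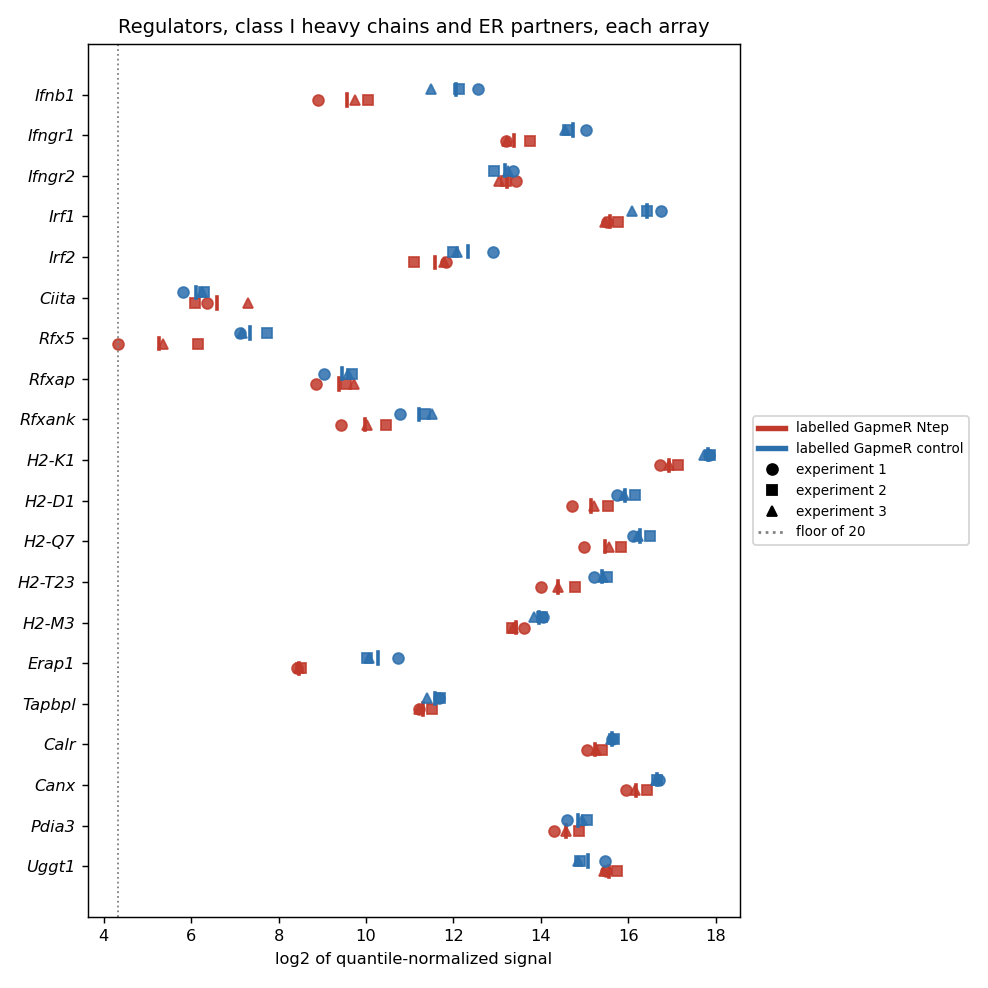
Log2 of the quantile-normalized signal (x axis) on each of 6 arrays, for regulators, class I heavy chains and ER partners, drawn as in the plot of the 10 genes by array. Ifnb1, Ifngr1, Erap1 and the 5 heavy chains show Ntep-labelled arrays to the left of all controls, and Ifngr2, Ciita and Rfxap overlap between labels. Among the regulators not drawn are the NF-Y genes and Creb1.

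Over all 67 tested genes of the pathway that were not members, 5 fell and 1 rose at the adjusted limit, beside 3.17% and 1.98% of all genes. They had a median log2 difference of -0.02, with 35 below zero and 32 above. With experiments as blocks 8 were lower and 2 higher, beside 7.4% and 6.49% of all genes. The 8 include Rfx5, whose brightest probe was tested only through its level on the controls. Such a probe could be called only as lower, so nothing is read from its call. Of the genes that fell, 0 remained past the adjusted limit when the Ntep-labelled array of experiment 3, or the control of experiment 2 or 3, was left out, where 12, 10 and 10 genes were lower at an unadjusted limma p under 0.05.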

How the data were processed

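Scanner intensities of 6 arrays, deposited by the authors as background-subtracted values from Feature Extraction 10.7.3.1, were used. Repeat spots were averaged per probe and quantile normalization was applied across arrays, followed by a floor of 20 and log2 transformation. As in the methods of the study, labels were compared without pairing, here by limma 3.58.1 under R 4.3.3. The authors also deposited quantile-normalized intensities, which served as an alternative. Probes had to average 50 or more on the arrays of either label, tests were two-sided, and Benjamini-Hochberg adjustment covered every tested probe. A gene was read by its brightest tested probe. Probe coordinates are mm9, and promoters are from RefSeq for GRCm38.p6. Tables and figures were made with Python 3.11.15 (pandas 2.3.3, matplotlib 3.10.9).

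The members and lists were chosen with earlier results of these data known. Named were all members, all constitutive catalytic, ER partner and heavy chain genes, genes past the adjusted limit or at the ends of the other lists, and the 5 genes most like the members. H2-L, H2-Q4 and H2-T22 had no probe under those names. The array documentation of the study pairs the arrays by culture day, and residuals within an experiment correlated at 0.466, 0.300 and 0.254, so experiments were also fitted as blocks. An exact permutation of 3 against 3 arrays has a smallest p of 0.1, and the number of arrays limits the precision. The unpaired limma fit was tested on simulated log2 values with independent noise. Normalization, the floor, the choice of probe and the block were not part of that test. Values of some genes of the lists are not reported here.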

Additional observations from a re-analysis of the deposited data

How the results depend on the processing

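All 10 member genes stayed below zero under the 17 alternatives, and 162 of 170 values moved by less than the spread between replicates. Many of the 162 could not move. No filter, the filter on well above background, the methods' t-test and the block leave the log2 difference of a probe as it was. The mean of all probes leaves genes with 1 probe as they were, and the floor of 5 changed no member. Such values lie within the spread by construction and say nothing on how firm a difference is. Outside that spread were Psmb8 and Nlrc5 with normexp, Psmb10, Psme2 and B2m with 75th percentile scaling, Psme2 and Nlrc5 with the mean of all probes, and Psmb10 without experiment 1, an alternative chosen after seeing the data. Of 408 values of 24 other named genes, 355 kept direction and side of the limit, 47 missed an adjusted limit passed before, 4 newly passed it and 2 changed sign, both in Psmb6 (0.20 with 75th percentile scaling, and 0.061 without GapmeR Ntep replicate 2, in a range of -0.087 to 0.061 when an array was left out). The cause was not tested.

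The count of members past the adjusted limit, 6, became 2 with no filter on dim probes, 2 with the methods' t-test and 10 with the experiment pairing as a block. It ranged from 0 to 7 when an array was left out. It was 0 without GapmeR Ntep replicate 3 or control replicate 2 and 1 without control replicate 1 or 3, while all 10 had an unadjusted limma p under 0.05 each time. The count past a fold of 2 and p under 0.01 was 6 to 8 when an array was left out.

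The 5 pathway genes that fell became 3 with 75th percentile scaling, 0 with no filter or the methods' t-test (19 and 18 at an unadjusted p under 0.05), 8 with the block and 2 without experiment 1, and 0 to 5 when an array was left out, with 1 without GapmeR Ntep replicate 1 or control replicate 1. The 1 that rose became 0 with no filter or the t-test (10 and 9 unadjusted), 3 with normexp, 3 with the filter on well above background, 2 with the block, and 0 to 1 when an array was left out. It was 0 without GapmeR Ntep replicate 2 or 3 or any control replicate (5 to 11 unadjusted). At the unadjusted fold limit, the 1 higher gene became 2 with the mean of all probes, normexp, the filter on well above background, the block or without experiment 1, and was 1 to 2 when an array was left out (2 without control replicate 1). Over all probes 1642 passed the adjusted limit, 4292 with the block, and 0 without GapmeR Ntep replicate 3 or control replicate 2 (6146 and 5092 at an unadjusted p under 0.05). Values near background, as in Psmb8 and Tap1, bound the size of a difference poorly.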
